A study of Homo sapiens with 18 samples.

Results

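CYP26A1, CYP26B1, CYP26C1 and DHRS3 encode the enzymes that lower the amount of retinoic acid in a cell. They are 4 of the 60675 gene IDs in the abundance tables, were taken by gene name, and all 4 were listed in each of the 18 libraries. CYP26B1 and DHRS3 passed the filter on low values, at least 1 TPM (a length-corrected share of the transcripts of a library) in at least 3 libraries, and CYP26A1 and CYP26C1 did not. The filter kept 18269 genes.

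The study asked how rexinoids, compounds that bind the retinoid X receptors (RXRs), change gene expression in U87, an established human glioblastoma line that the labels call glial. All libraries came from this line after 24 h, with the vehicle ethanol or with 100 nM of bexarotene, a rexinoid in clinical use, or of a compound known only by code: A34, A41, A80 or A98. Each of these 6 groups had 3 libraries of bulk RNA depleted of ribosomal RNA, and ethanol and bexarotene were the study's controls. The labels do not say whether a group is made of separate cultures, so a p-value here speaks of library-to-library spread, which may be technical. In bulk RNA, more cells that express a gene and more RNA per cell cannot be told apart. U87 is 1 line and a limited model of glia: of 6 astrocyte markers, GFAP averaged 0.788, AQP4 0.048 and S100B 0.0097 scaled TPM, and SLC1A3 20.9, GJA1 69.2 and CLU 199, whereas VIM, a mesenchymal marker abundant in glioma lines, averaged 4058.

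Retinoic acid is made from retinol in successive oxidations, first to retinaldehyde and then to the acid. DHRS3 acts on the first step, turning retinaldehyde back into retinol, and the CYP26 enzymes, cytochrome P450s, oxidise retinoic acid itself to polar products. Retinoic acid binds the retinoic acid receptors (RARs), which sit on DNA with an RXR partner at direct repeats of a short hexamer, and CYP26 and DHRS3 genes are known targets of these pairs, so that the acid feeds back on its own level.

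In the deposited tables, on build GRCh38, DHRS3 (ENSG00000162496) occupies chr1:12567910-12618210 on the minus strand and CYP26B1 (ENSG00000003137) chr2:72129238-72148038 on the minus strand. CYP26C1 (ENSG00000187553, chr10:93060798-93069540) and CYP26A1 (ENSG00000095596, chr10:93073475-93077885) follow each other on the plus strand of chromosome 10. RefSeq promoter windows, 250 bases before to 50 after a start site (GRCh38.p14), were at hand for all 4 genes, 7 windows in total. The hexamer was searched as AGGTCA, in a variant at 1 inner base, AGTTCA, and with a guanine opening either of them, which reads GGGTCA for the consensus and GGTTCA for the variant. Direct repeats of these, in any pairing and on both strands, were searched at spacings of 1, 2, 4 and 5 bases. DNA before the DHRS3 and CYP26B1 transcripts is shown because these are the members that rose, and a 30-base stretch of CYP26A1 because it held the only match; capitals mark the matched repeat. The DHRS3 stretch is chr1:12618211-12618460, the CYP26B1 stretch chr2:72148039-72148112, each read on the minus strand, and the CYP26A1 stretch chr10:93073797-93073826.
DHRS3: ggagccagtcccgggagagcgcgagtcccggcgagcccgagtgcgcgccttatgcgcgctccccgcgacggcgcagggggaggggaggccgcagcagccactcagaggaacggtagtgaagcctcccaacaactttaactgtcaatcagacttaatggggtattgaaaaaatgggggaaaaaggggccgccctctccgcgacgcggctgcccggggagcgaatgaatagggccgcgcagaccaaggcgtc
CYP26B1: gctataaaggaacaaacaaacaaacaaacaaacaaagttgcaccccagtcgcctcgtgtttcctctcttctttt
CYP26A1: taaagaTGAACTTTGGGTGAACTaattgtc

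The match in CYP26A1 is a repeat spaced by 5 bases, bases 93073803 to 93073819, which is 90 to 74 bases before the start site at 93073893. GENCODE release 29 places it in the untranslated first exon of a longer CYP26A1 transcript. A repeat with this spacing was found in 31 of 35116 promoter windows (0.0883%), against 0.131%, 0.0399% and 0.0854% at spacings of 1, 2 and 4, and a single hexamer in 38.6%. The CYP26B1 window held no hexamer, nor did the DHRS3 window at the start site used by the tables. The DHRS3 windows at start sites 12616789 and 12596613 held 1 hexamer each, as did the CYP26C1 window. The CYP26A1 windows held 0 and 2. An absence therefore holds only for the window named, and a match describes sequence, not a bound site.

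Levels below are TPM after scaling of each library to a common median gene, here called scaled TPM; TPM is already divided by gene length, so levels can be set side by side between genes. The data behind a library ranged from 1.31 to 3.89 gigabases of aligned sequence. In 3 libraries ribosomal RNA made up much of TPM: ethanol replicate 2 (35.5%), bexarotene replicate 1 (44.9%) and A41 replicate 2 (56.1%). The remaining 15 held 0.349% to 4.35%, and the scaling removes the part of this difference that lowers all other genes alike.

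CYP26B1, the CYP26 enzyme that U87 expressed, rose with all 5 rexinoids and most with A41. With ethanol it stood at 4.89, 3.03 and 4.0 scaled TPM in the 3 libraries, those given bexarotene at 15.96, 12.76 and 13.78, and those given A34 at 24.68, 17.40 and 13.08. After A80 it stood at 16.45, 11.79 and 11.66, after A98 at 15.66, 13.03 and 14.92, and after A41 at 67.91, 54.82 and 52.31. Every one of the 15 rexinoid libraries lay above the 3 ethanol libraries, and the 3 A41 libraries lay above the other 12. The share of all genes that separate in this way was not counted, here or for the genes below. Bexarotene, A34, A80 and A98 overlapped one another between 11.66 and 24.68. The A34 libraries were the most scattered for CYP26B1, with a coefficient of variation of 31.9%, against 9.34% for A98.

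DHRS3, the reductase that returns retinaldehyde to retinol, was the more abundant member in all 18 libraries. Its ethanol libraries stood at 30.1, 37.2 and 37.8 scaled TPM, those of bexarotene at 62.5, 70.5 and 68.2, and those of A34 at 80.1, 73.4 and 80.4. Those of A80 stood at 74.9, 69.1 and 64.8, those of A98 at 70.0, 66.9 and 67.8, and those of A41 at 160.3, 145.9 and 162.4. As for CYP26B1, A41 and then A34 had the highest means, with no overlap between ethanol and any rexinoid or between A41 and the rest. The 12 libraries of bexarotene, A34, A80 and A98 spanned 62.5 to 80.4, a narrower band, relative to its level, than for CYP26B1.

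**Figure D1:**
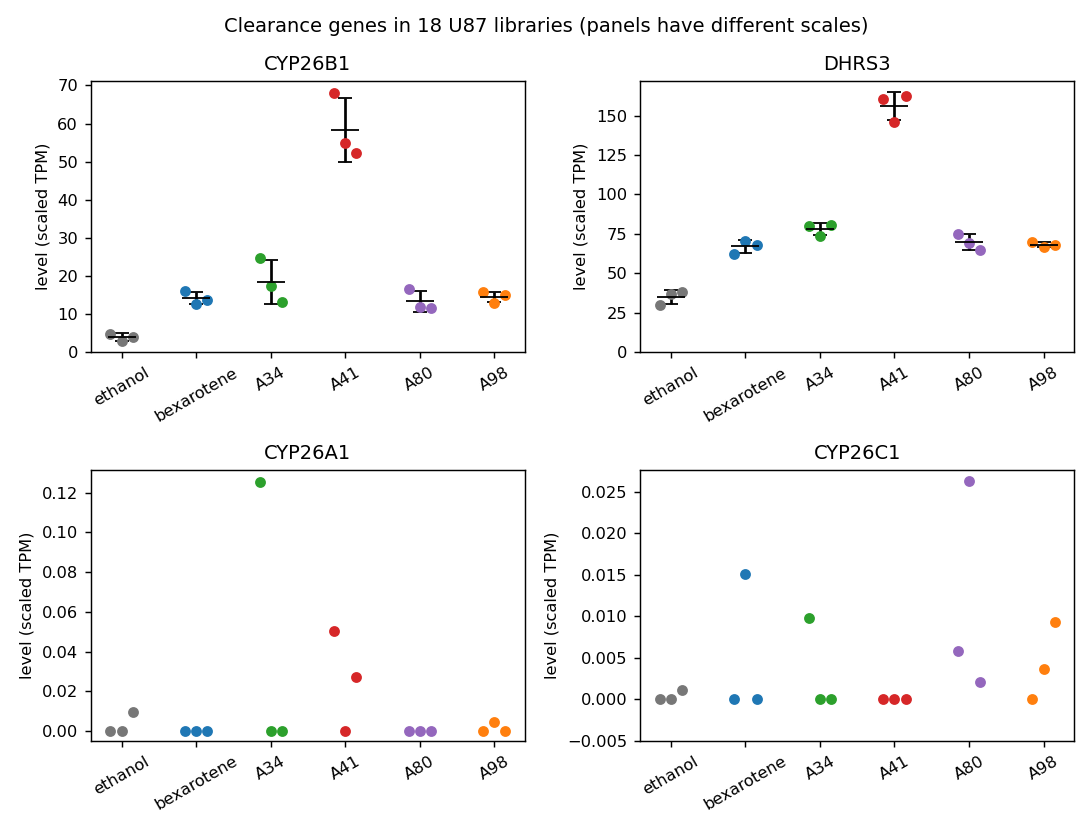
Levels of the 4 clearance genes (scaled TPM, 1 point per library; panels have different scales) in the 6 treatment groups, with the mean and SD of 3 libraries in the 2 upper panels. In the CYP26B1 and DHRS3 panels the A41 libraries stand above all others and the ethanol libraries below all others, while CYP26A1 stays under 0.14 and CYP26C1 under 0.03.

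The other 2 members were at the limit of what the libraries could detect. CYP26A1, often the most inducible CYP26 gene in other cells, was listed at 0 in 13 of 18 libraries. It was above 0 in 1 ethanol library (0.0111 TPM), 1 A34 library (0.140), 2 A41 libraries (0.0561 and 0.0308) and 1 A98 library (0.0055). The highest of these, in A34 replicate 1, corresponded to about 201 aligned bases over 2972 exon bases, little more than the 150 bases of a single read. CYP26C1 was above 0 in 8 of 18 libraries and in none of the 3 with A41, with a highest value of 0.0287 TPM in A80 replicate 2. On log2(scaled TPM + 1), the 15 rexinoid libraries and the 3 ethanol libraries gave a two-sided exact permutation p of 1 for CYP26A1 and 0.404 for CYP26C1. For CYP26A1 with A41 the p was 0.4, and for CYP26C1 with A80 it was 0.1, the smallest that 3 against 3 libraries allow. A change in either gene was thus not detectable at this depth, and no fold is given. An overlapping transcript on the same strand, AL358613.3, covers parts of both genes and was listed at 0 in all 18 libraries.

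Each rexinoid was compared with ethanol in limma, on log2(scaled TPM + 1), with all 18 libraries in 1 fit; p-values were adjusted by the Benjamini-Hochberg method over the 18269 genes of a comparison, and a gene is called at an adjusted p under 0.05. The 5 comparisons share the same 3 ethanol libraries. CYP26B1 rose by a log2 fold change of 1.62 with bexarotene (SE 0.20, adjusted p = 0.0024), 1.94 with A34 (SE 0.20, 0.00018), 1.53 with A80 (SE 0.20, 0.0056) and 1.66 with A98 (SE 0.20, 0.0014). With A41 the rise was 3.59 (SE 0.20, adjusted p = 7.4e-08), and the A41 mean was 14.7 times the ethanol mean. DHRS3 rose by 0.92 with bexarotene (SE 0.09, adjusted p = 0.00029), 1.14 with A34 (1.5e-05), 0.97 with A80 (0.00013) and 0.95 with A98 (0.00016). With A41 it rose by 2.13 (SE 0.09, adjusted p = 1.5e-09), to 4.46 times the ethanol mean. Few genes were called in these comparisons: 0.0547% of those tested for bexarotene, 0.0821% for A34, 0.755% for A41, 0.0438% for A80 and 0.0328% for A98. DHRS3 had the smallest p of all 18269 genes in each of the 5 comparisons, and CYP26B1 was among the 5 smallest in each. ABCA1 and SCD, lipid genes compared below, were called in all 5 as well. They ranked 2 and 3, ahead of CYP26B1, with bexarotene, A34 and A98, and behind it with A41 and A80. For the mean of the 5 rexinoids, where 0.203% of genes were called, CYP26B1 rose by 2.07 (SE 0.15, adjusted p = 5.3e-06) and DHRS3 by 1.22 (SE 0.07, 1.3e-07).

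**Figure D2:**
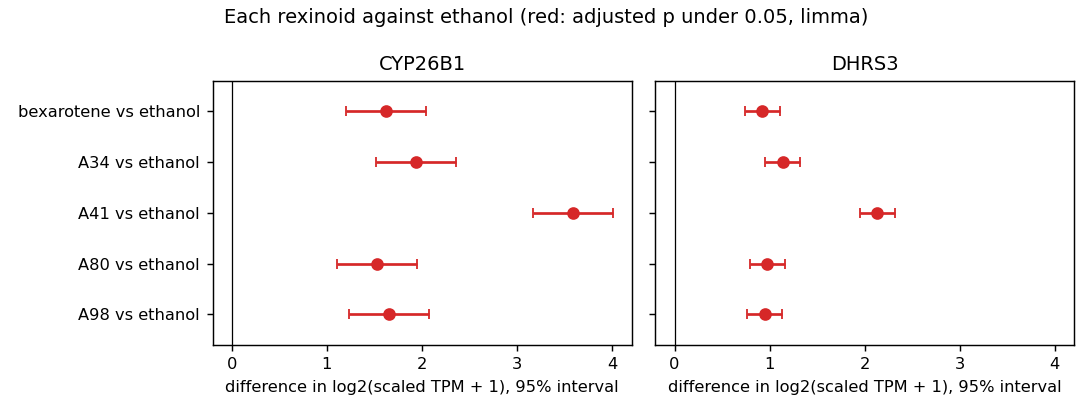
Difference from ethanol in log2(scaled TPM + 1) for CYP26B1 and DHRS3 with each rexinoid (point, estimate; bar, 95% interval from limma; 3 libraries a group). All 10 intervals lie above 0, and the A41 intervals, 3.17 to 4.01 for CYP26B1 and 1.95 to 2.31 for DHRS3, lie above those of the other rexinoids.

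Several of these calls were lost with libraries left out, without scaling or with fewer groups in the fit. Without the 3 libraries rich in ribosomal RNA, CYP26B1 was no longer called with bexarotene (1.39, adjusted p = 0.18) or A80 (1.38, 0.072), and its A80 call was also lost without ethanol replicate 2 (0.053) or A80 replicate 1 (0.051), while DHRS3 was called in all 5 comparisons under each of these omissions. With TPM as deposited, where A41 replicate 2 read only 22.86 for CYP26B1 and 60.8 for DHRS3, all calls were lost but that of CYP26B1 with A41 (3.24, adjusted p = 2.5e-05) and with the 5 rexinoids together (2.02, 0.0023), and in fits of only the 2 groups compared those of bexarotene, A34, A80 and A98 were lost for both genes (adjusted p between 0.053 and 0.29).

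The 5 rexinoids were then compared with each other at the same dose and time, in 10 pairs. CYP26B1 was higher with A41 than with bexarotene by 1.96 (SE 0.20, adjusted p = 0.00025), than with A34 by 1.65 (0.0019), than with A80 by 2.06 (0.0002) and than with A98 by 1.93 (0.00033). As ratios of group means, A41 stood 4.12 times above bexarotene, 3.17 above A34, 4.39 above A80 and 4.01 above A98. DHRS3 was higher with A41 by 1.21 (SE 0.09, adjusted p = 6.5e-06), 0.99 (0.0001), 1.16 (1.2e-05) and 1.18 (8.9e-06) against the same 4 compounds, or 2.33, 2.00, 2.24 and 2.29 times. The share of all genes called in these 4 pairs was 0.115%, 0.0712%, 0.126% and 0.131%, and DHRS3 again had the smallest p in each. The 4 pairs share the A41 libraries. With only the 2 groups in the fit, both calls against A34 were lost (CYP26B1 adjusted p = 0.35, DHRS3 0.12), and with TPM as deposited those of all 4 pairs were lost for both genes.

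In the 6 pairs without A41, limma called neither gene, and 0 to 1 genes of all those tested (0% to 0.00547%). Over these pairs, 3.55% to 6.86% of all genes had an unadjusted p under 0.05 in limma. At that level 2 of 6 pairs passed for DHRS3 and 0 of 6 for CYP26B1. For DHRS3 these were A34 over bexarotene by 0.22 (95% interval 0.03 to 0.40, adjusted p = 0.91) and A34 over A98 by 0.19 (0.01 to 0.37, adjusted p = 0.98). The largest CYP26B1 difference was A34 over A80, 0.41 (−0.01 to 0.83, adjusted p = 1). Bexarotene, A80 and A98 lay closest together. CYP26B1 differed by −0.10 (−0.52 to 0.32) for A80 against bexarotene, 0.04 (−0.38 to 0.46) for A98 against bexarotene and −0.13 (−0.55 to 0.29) for A80 against A98. The DHRS3 differences in these 3 pairs were 0.05 (−0.13 to 0.24), 0.03 (−0.16 to 0.21) and 0.03 (−0.16 to 0.21). The intervals reach from −0.55 to 0.46 for CYP26B1, so these pairs are not shown to act alike.

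**Figure D3:**
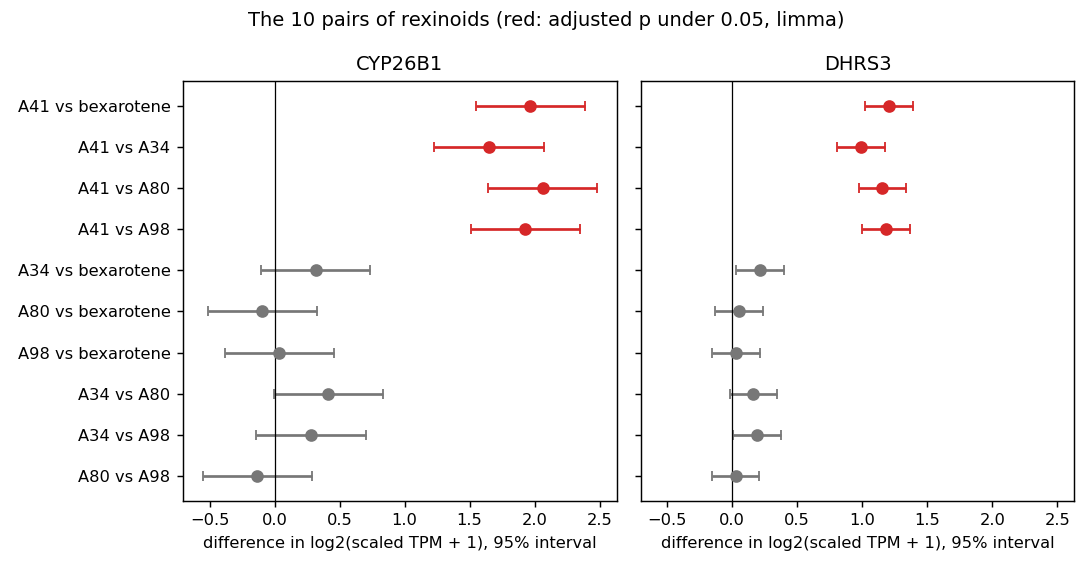
Differences between rexinoids in log2(scaled TPM + 1) for the 10 pairs (point, estimate; bar, 95% interval from limma; 3 libraries a group; red, adjusted p under 0.05). The 4 pairs with A41 lie between 1.65 and 2.06 for CYP26B1 and between 0.99 and 1.21 for DHRS3, and none of the 6 other pairs is called.

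A joint F test over the 5 rexinoids called 0.0657% of genes. DHRS3 ranked 1 (F = 71.2, adjusted p = 1.8e-05) and CYP26B1 ranked 3 (F = 38.3, 0.00048). ABCA1, a cholesterol exporter, and SCD, a fatty acid desaturase, both known targets of liver X receptors with RXR, rose with all 5 rexinoids but ranked 48 (adjusted p = 0.28) and 76 (0.36). The ratios to these genes within a library were set side by side for the 3 A41 and the 12 other rexinoid libraries, a split made with the A41 levels known and so given without a test. On the log2 scale, CYP26B1 was higher relative to ABCA1 by 1.80 and relative to SCD by 1.61, and DHRS3 by 0.98 and 0.79. The 3 A41 libraries did not overlap the other 12 in any of the 4 ratios. CYP26B1 and DHRS3 already separated these libraries by level, so the ratios add no separate support. The share of all genes whose ratios separate in this way was not counted.

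CYP26B1 and DHRS3 did not move by the same factor. For every 100 units of DHRS3, in scaled TPM, there were 16.2, 8.1 and 10.6 of CYP26B1 in the ethanol libraries and 42.4, 37.6 and 32.2 in the A41 libraries. The group means were 21.3 for bexarotene, 23.6 for A34, 19.0 for A80 and 21.3 for A98, with single libraries from 16.3 to 30.8, so that A34 replicate 3, at 16.3, lay close to the highest ethanol library. The log2 ratio of CYP26B1 to DHRS3 was higher in the 15 rexinoid than in the 3 ethanol libraries by 1.07 (two-sided exact permutation p = 0.0025, 0.015 adjusted over 7 tests of this ratio). This p is the smallest that the design can give; without any 1 ethanol library the adjusted p was 0.051, the smallest then possible. The ratio was higher in the 3 A41 than in the 12 other rexinoid libraries by 0.83, given without a test for the same reason as above. A permutation p of this split was still among the 7 adjusted together, so both adjusted values above depend on it. Each rexinoid alone against ethanol gave a p of 0.1, again the smallest possible, with differences of 0.91 for bexarotene, 1.03 for A34, 1.73 for A41, 0.76 for A80 and 0.93 for A98.

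**Figure D4:**
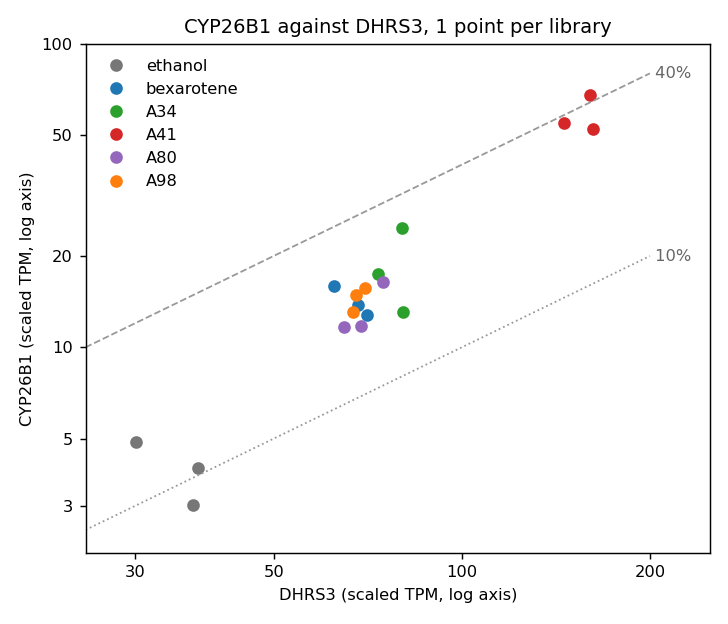
CYP26B1 against DHRS3 in each of the 18 libraries (scaled TPM, both axes logarithmic; the grey lines mark CYP26B1 at 10% and 40% of DHRS3). The ethanol libraries lie near the lower line, the A41 libraries near the upper one, and the other 12 libraries between them.

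Across the 18 libraries the log2 levels of the pair gave a Pearson r of 0.966 and a Spearman rho of 0.81, a description of points that share 6 treatments. After the group means were taken away the r was −0.11, so the relation lay between groups. The genes most like CYP26B1 over the 18 libraries, among 13022 ranked, were ID1 (r = 0.965), an inhibitor of DNA binding by basic helix-loop-helix factors, STRA6 (0.960), the membrane receptor for retinol-binding protein, GALNT12 (0.956), APLP2 (0.955) and TGM2 (0.950), transglutaminase 2. Those most like DHRS3 were ID1 (0.972), GALNT12 (0.959), APLP2 (0.939), FAM89B (0.929) and FAM20C (0.925). The choice is loose: of each 5, Spearman's rho kept 1, and a correlation over the 6 group means kept 1 for CYP26B1 and 3 for DHRS3.

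Some other retinoid genes passed the test with A41. Of 53 other retinoid genes in the tables, in lists chosen with earlier results of these data known, 34 were tested. With A41, 5 were higher than with ethanol and 0 lower, beside 0.509% of all genes higher. These were the cell-surface receptor STRA6, the reductase RDH11, the homeobox gene HOXA5, the nuclear receptor corepressor NRIP1 and transglutaminase TGM2. With each of the other 4 rexinoids limma called 0 of 34, beside 0.0328% to 0.0821% of all genes, so 0 is near that share. At an unadjusted p under 0.05 it found 4 higher with bexarotene, 5 higher and 1 lower with A34, 3 and 1 with A80, and 3 higher with A98. Of all genes, 5.75%, 10.7%, 9.41% and 6.63% passed in these comparisons. The median log2 fold change of the 34 genes with A41 was 0.14, against −0.01 for all genes tested. With TPM as deposited only STRA6 was called, and with only the 2 groups in the fit STRA6 and TGM2 (NRIP1 adjusted p = 0.070). RDH11 and HOXA5 also lost their calls with ribosomal RNA taken out of TPM (adjusted p = 0.26 and 0.13), with the 3 rich libraries left out (0.15 and 0.14), without any 1 ethanol or A41 library (up to 0.13) and with adjustment over all 15 comparisons (0.12 each).

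Among the enzymes that make retinoic acid, the step opposite to DHRS3 is catalysed by RDH10, which oxidises retinol to retinaldehyde. RDH10 was low, 4.48 ± 0.74 scaled TPM with ethanol and 4.49 ± 0.39 with A41 (SD, n = 3 each), a log2 fold change of 0.01 (adjusted p = 0.99). ALDH1A3, which oxidises retinaldehyde to retinoic acid, was the abundant isoform at 313 ± 28 with ethanol and 278 ± 27 with A41 (−0.17, adjusted p = 0.49), whereas ALDH1A1 and ALDH1A2 averaged 0.376 and 1.01. RDH11, which like DHRS3 reduces retinaldehyde, went from 62.9 ± 2.8 to 85.3 ± 0.8 with A41 (0.44, adjusted p = 0.023). With A41 it was the 1 called of 13 tested among the 22 enzymes of retinal and retinol synthesis and storage. Of all genes, 0.755% were called in that comparison. DHRS3 and RDH11 stood at similar levels with bexarotene, 67.0 and 78.9, and DHRS3 was higher with A41, 156 against 85.3.

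Of 10 uptake and binding genes, 4 were tested. Beside 0.755% of all genes, 1 of these 4 was called with A41, STRA6. It stood at 0.645 ± 0.29 scaled TPM with ethanol, 8.02 ± 1.3 with A41 and 1.61 to 2.09 with the other rexinoids (SD, n = 3). Its log2 fold change with A41 was 2.46 (SE 0.21, adjusted p = 1.1e-05), and A41 was above each other rexinoid by 1.56 to 1.78 (adjusted p between 0.0014 and 0.0076). CRABP2, which carries retinoic acid to its receptors, went from 36.7 ± 5.0 to 64.5 ± 9.9 with A41 without passing the test (0.79, adjusted p = 0.32). Of 7 other P450 genes, 4 were tested and 0 called by limma in any comparison with ethanol, where 0.0328% to 0.755% of all genes were called. The 4 were CYP1B1 (163 scaled TPM on average), CYP27C1 (17.4), CYP3A5 (2.24) and the electron donor POR (48.3), which CYP26 enzymes need.

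The receptors that act on CYP26 and DHRS3 genes were present at moderate levels. Against ethanol, limma called 0 of the 5 tested with any rexinoid, beside 0.0328% to 0.755% of all genes, so 0 is near that share. RARG averaged 28, RARA 18, RXRB 9.05, RARB 6.53 and RXRA 5.68 scaled TPM, and RXRG, at 0.120, was not tested. RARB, itself a textbook RAR target, had 5.12 ± 0.03 with ethanol and 8.10 ± 2.6 with A41 (0.54, adjusted p = 0.35). Of 12 RAR target genes other than the members, a list chosen with earlier results of these data known, 11 were tested. Beside 0.509% of all genes, 4 of them were higher with A41 than with ethanol: STRA6, TGM2 (165 ± 4 to 346 ± 21, log2 fold change 1.06, adjusted p = 4.0e-06), NRIP1 (27.4 ± 2.7 to 46.4 ± 3.9, 0.74, 0.00029) and HOXA5 (1.63 ± 0.13 to 3.55 ± 0.30, 0.79, 0.025). The median of the 11 tested was 0.74, against −0.01 for all genes. CYP26B1, DHRS3 and STRA6 had the 3 largest changes of all the retinoid genes tested with A41.

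**Figure D5:**
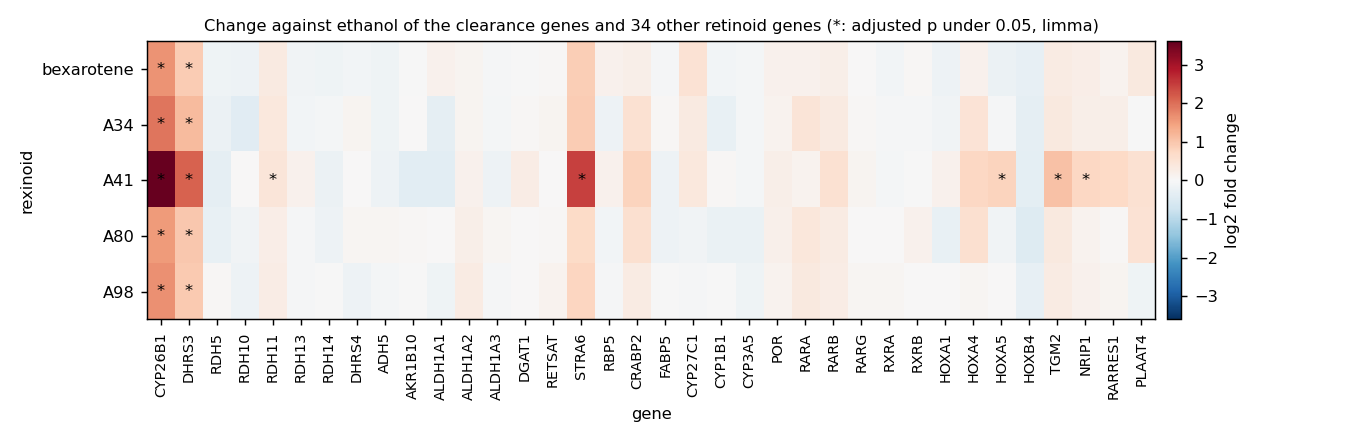
Log2 fold change against ethanol of CYP26B1, DHRS3 and 34 other retinoid genes (columns) with each rexinoid (rows), limma, 3 libraries a group; asterisks mark an adjusted p under 0.05. CYP26B1 and DHRS3 carry asterisks in all 5 rows, and RDH11, STRA6, HOXA5, TGM2 and NRIP1 in the A41 row.

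Neighbours of the members were read from the same tables. AC254633.1 (ENSG00000272482, chr1:12618900-12619244) lies on the strand of DHRS3, 689 bases before its start. Its ethanol libraries stood at 2.23, 2.21 and 2.02 scaled TPM and its A41 libraries at 15.63, 11.38 and 10.80, above the other 15. The log2 fold change with A41 was 2.09 (SE 0.29, adjusted p = 0.0016), a call lost with TPM as deposited (1.80, adjusted p = 0.077). It was 1.00 with bexarotene (adjusted p = 0.84), 0.99 with A34 (0.25), 0.93 with A80 (0.37) and 0.38 with A98 (0.86), none of them called. Whether its reads belong to a longer DHRS3 transcript was not tested. RNU6ATAC18P and MIR6730 lie inside DHRS3 and averaged 1.17 and 0.338 scaled TPM. EXOC6B, 27945 bases before CYP26B1 on the same strand, averaged 14.5 with ethanol and 15.7 with A41 (log2 fold change 0.10, adjusted p = 0.79).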

How the data were processed

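The submitters' processing notes name STAR, MultiQC and StringTie, and build GRCh38. Not given in the sources used here: versions, annotation release and strand handling. StringTie tables were deposited, 1 per library. TPM was computed by the authors, per the file headers; FPKM, scaled to mapped fragments, and coverage, the mean signal per base, stood beside it in the deposited tables. Aligned bases were read from the highest ratio of coverage to FPKM in a library. Entries that repeat a gene ID (2 to 3 a library) were summed. TPM was divided by a median-of-ratios factor over 16349 genes. limma 3.58.1 in R 4.3.3 fitted log2(scaled TPM + 1) for 6 groups with a trend (12 residual and 3.39 prior degrees of freedom), two-sided, after a test on simulated data. This scale understates changes of low genes. Ratios and members below the filter had exact permutation tests (scipy 1.17.1). Without read counts no count model could be run. Exon bases are from GENCODE release 29.

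Groups and replicate numbers follow the labels; file names use A90 for the A98 group, and some of their replicate numbers differ. Members and gene lists were chosen with earlier results of these data known. The text names all members, retinoid list genes that were called, the receptors, ABCA1, SCD and neighbours. It also names the 5 tested genes most like CYP26B1 and DHRS3 (mean of at least 2 scaled TPM, span of at least 300 bases). SREBF1, listed with ABCA1 and SCD and called with A41 and with the 5 rexinoids together, is named only here. Of the neighbours, RPS20P10 and the untested LINC02766, NIP7P1, AL358613.1 and AL358613.2 are named only here. CRABP2, the ALDH1A, RDH10 and P450 values and STRA6 under the other rexinoids are given beyond that rule, chosen after their values were seen. Replicate numbers were not taken as pairs in the main fit. Same-numbered libraries deviated together (r over 0.1) in 11 of 45 pairs, against 7 of 90 pairs with different numbers. The median r was 0.029 against −0.0057, so libraries of 1 number were somewhat more alike. The cause was not tested, and fits with a replicate block are given below. No 2 libraries held identical values. Alternatives covered scaling, pseudocount, filter, groups in the fit, replicate block, left-out libraries, weights and adjustment.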

Additional observations from a re-analysis of the deposited data

How the results depend on the processing

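Of 411 alternative values of the member results, 374 kept their direction and side of the threshold, and of 810 with 1 library left out, 797 did. Many of these could hardly change. They include uncalled pairs, ratio tests of 3 against 3 libraries, whose p cannot fall below 0.1, and omissions of libraries outside the comparison. The A41 ratios given above without a test are also counted, so the totals do not measure robustness. With TPM as deposited, which moves the median of all genes against ethanol by −0.27 (A41) to 0.15 (A98), the log2 fold changes that lost their call against ethanol were, for CYP26B1, 1.42 (bexarotene), 2.02 (A34), 1.60 (A80) and 1.82 (A98), and for DHRS3 0.72, 1.23, 1.06 and 1.13, with 1.79 for A41 and 1.19 for the 5 together. A41 against bexarotene, A34, A80 and A98 gave 1.82, 1.23, 1.65 and 1.43 for CYP26B1 and 1.07, 0.56, 0.73 and 0.66 for DHRS3, also uncalled, and the F test 6.98 and 2.01. With only the 2 groups compared the changes kept their size but lost the call: 1.62, 1.94, 1.53 and 1.66 for CYP26B1 and 0.92, 1.14, 0.97 and 0.95 for DHRS3 against ethanol, and 1.65 and 0.99 for A41 against A34. That alternative has fewer libraries to estimate the spread. The cause of these losses and of the others was not tested. Without the 3 libraries rich in ribosomal RNA, CYP26B1 lost its call with bexarotene (1.39) and A80 (1.38).

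Uncalled differences near 0 changed sign: CYP26B1 A80 against bexarotene with TPM as deposited (0.17), DHRS3 A80 against A98 with TPM as deposited (−0.065) or without ribosomal RNA in TPM (−0.069), and DHRS3 A98 against bexarotene without the 3 rich libraries (−0.022) or with array weights (−0.0031). With 1 library left out, the ranges were −0.022 to 0.063 for DHRS3 A98 against bexarotene, −0.031 to 0.12 for CYP26B1 in that pair, −0.0014 to 0.10 for DHRS3 A80 against bexarotene, −0.028 to 0.076 for DHRS3 A80 against A98, and 1.37 to 1.66 for CYP26B1 with A80. The ratio of CYP26B1 to DHRS3 gave 0.84 to 1.34 with 1 library left out for the rexinoids against ethanol and 0.73 to 0.93 for A41 against the others; the first had an adjusted p of 0.051 without any 1 ethanol library, the smallest that the smaller design allows.

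A replicate block changed no member call: CYP26B1 with A80 had an adjusted p of 0.00025 with the numbers of the titles and 0.00027 with those of the tables. The number of genes called moved more with settings: over all alternatives 0 to 20 with bexarotene (10 as reported), 0 to 166 with A34 (15), 4 to 547 with A41 (138), 0 to 261 with A80 (8), 2 to 24 with A98 (6) and 1 to 277 for the 5 together (37), and for A41 against bexarotene, A34, A80 and A98 1 to 94 (21), 0 to 73 (13), 1 to 475 (23) and 1 to 147 (24). With the block from titles these were 13, 166, 197, 117, 8 and 147 against ethanol. Over the settings, an alternative chosen after seeing the data, 1 (STRA6) to 6 of the 34 other retinoid genes were called with A41, the 6 including CRABP2 (adjusted p = 0.044) with the block from titles; with that from the tables RDH11 (0.055) and HOXA5 (0.069) were not called. The 3 libraries a group and 1.31 to 3.89 gigabases limit genes near 1 TPM most, CYP26A1 and CYP26C1 above all.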

Other observations

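CYP26B1 was highest in the library labelled replicate 1 in all 6 groups, a pattern noticed in the data. Its log2 deviation from the group mean was 0.25 on average in these 6 libraries, from 0.10 to 0.45, against −0.14 in those labelled replicate 2 and −0.12 in those labelled replicate 3. DHRS3 did not share it: replicate 1 was its highest library in 2 groups and its lowest in 2, with a mean deviation of −0.01. AC254633.1, the neighbour upstream of DHRS3, was also highest in replicate 1 in all 6 groups, and STRA6 in 5 of 6. TGM2 and RARA, too, were highest in replicate 1 in every group, while RARG and EXOC6B were not. The pattern is therefore not particular to CYP26B1, and how many of all genes share it was not counted. Replicate 1 had the fewest aligned bases in 4 of the 6 groups; its part in the pattern was not tested.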
